A study of Nothobranchius furzeri with 228 samples.

Results

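The comparison described here set the second fin clip, taken at 20 weeks of age, against the first, taken at 10 weeks, in the killifish whose animal numbers run from 1 to 50. These numbers belonged to 48 of the 114 fish in the series and to 96 of its 228 samples. They were chosen by animal number only, and each fish gave 1 sample at each age. The series followed male Nothobranchius furzeri of strain MZM-0410 that aged normally, without treatment, until their deaths, and gene expression was read by RNA sequencing of the fin clips. The other fish fell into numbers 51 to 84, with 34 fish, and numbers of 85 and over, with 32 fish, all of the same strain, sex and ages at clipping. The ranges were not alike in lifespan. The median age at death was 311 days (145 to 405) in fish 1 to 50 and 217 days (143 to 392) in fish 51 to 84. It was 409 days (151 to 521) in the 31 fish of 85 and over with an age given. The part of lifespan in differences between the ranges was not tested. In 9 of the 32 fish of 85 and over the clips of 10 and 20 weeks did not match each other, by the comparison of individuals given further on for fish 1 to 50. The limits of the 3 ranges came from earlier results of these data, so the tests that set 1 range against another are not independent evidence that the ranges differ.

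The turquoise killifish is a very short-lived vertebrate that matures within weeks of hatching and ages within months. Its fin is a thin fold of stratified epidermis over connective tissue, with bony rays, vessels and nerves, and a clipped fin grows back. Collagens and their partners form the extracellular matrix on which the fin rests, genes of mitosis mark dividing cells, and heat shock genes encode chaperones that are made in response to heat and damaged protein.

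Assigned counts per library in fish 1 to 50 ran from 18042141 to 37397749 at 10 weeks and from 17607385 to 37764097 at 20 weeks. The 13 measured epidermal genes summed to between 94852 and 244756 CPM, the counts scaled to a common library size, at 10 weeks, so the clips carried the markers of their labelled tissue. In fish 18 and 43 the 2 clips did not match each other in 300 genes that identify individuals, with a correlation of at most 0.30 against at least 0.62 in the other fish. Fish 13, 28, 29 and 50 stood apart from the rest in the size of their changes, with a median absolute log2 change over genes of 0.53 to 0.79 against 0.20 to 0.45 in the other 44 fish. The 10 leading genes of fish 50 at 20 weeks took 45.6% of its counts, against at most 32.7% in those 44. The labels name no batch or date, so age, the order of clipping and any date of processing cannot be told apart.

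Of 17134 genes tested, 4663 changed between the clips of fish 1 to 50, which is 27.2% of them (edgeR quasi-likelihood test with the fish as block, Benjamini-Hochberg adjusted p under 0.05). The changes were split evenly, with 2329 genes that rose (13.6% of those tested) and 2334 that fell (13.6%). Most were small. The median absolute log2 fold change of the changed genes was 0.29, a 1.22-fold difference, against 0.08 in the genes that did not pass. Large changes were more often falls, since 72 genes fell and 31 rose by more than 1 on the log2 scale. Without the unmatched fish 2172 genes rose and 2587 fell, and without fish 13, 28, 29 and 50 the counts were 2293 and 2626. A p-value here weighs the mean change against the spread of the within-fish change. It takes the fish as independent, although groups of neighbouring numbers differed in many genes, as given further on.

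Among the named genes the steadiest fall was that of IGF2BP3 (Nfu_g_1_013299), which encodes an RNA-binding protein known for its expression in embryos and its binding of the IGF2 messenger. Its level ran from 10.1 to 31.6 CPM with a median of 18.8 at 10 weeks, and from 3.91 to 11.2 CPM with a median of 6.45 at 20 weeks. It was lower at 20 weeks in all 48 fish, and the groups overlapped only at their edges (log2 fold change -1.42, SE 0.06, edgeR adjusted p = 2.29e-25). OCA2 (Nfu_g_1_014733), which encodes a transporter of the pigment-forming melanosome, had a median of 33.9 CPM (5.45 to 100.6) at 10 weeks and 16.4 CPM (2.86 to 34.3) at 20 weeks. It was lower in 46 fish, with ranges that overlapped over most of the later values (log2 fold change -1.16, SE 0.11, edgeR adjusted p = 9.56e-12).

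**Figure D1:**
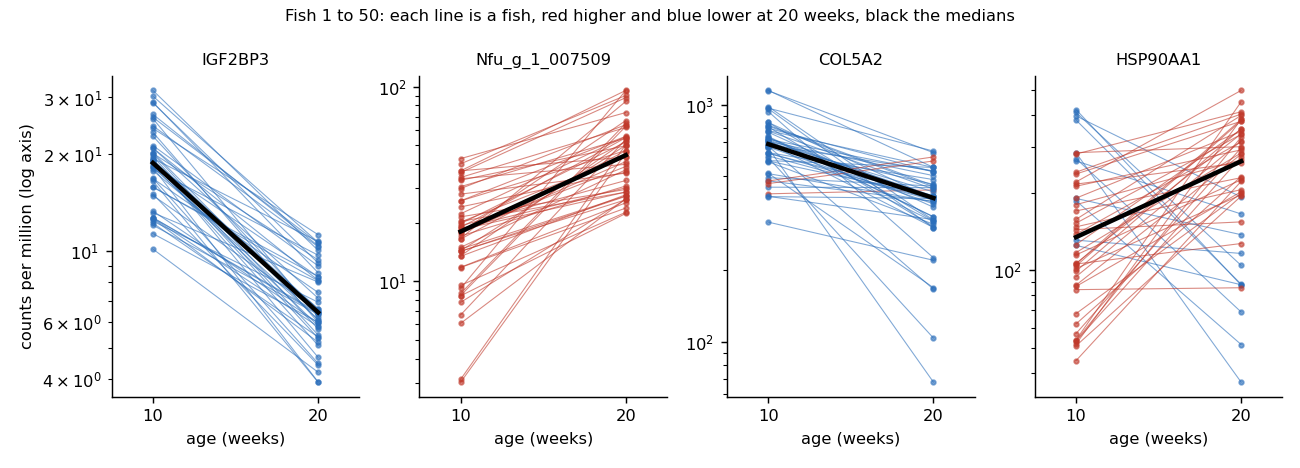
CPM of 4 genes in each of the 48 fish, on a logarithmic axis, with 1 line from the 10-week to the 20-week clip of each fish. IGF2BP3 fell in all 48 fish, Nfu_g_1_007509 rose in all 48, the collagen gene COL5A2 was lower in 45, and the chaperone gene HSP90AA1 was higher in 37 with lines that cross in both directions.

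Of the other named genes that fell most, CENPF, KIF20A, PLK1, TPX2 and KIF11 encode kinetochore, motor and spindle proteins of mitosis, and their log2 fold changes lay between -1.19 and -0.98. PLK1 (Nfu_g_1_007229), the mitotic kinase, had a median of 8.27 CPM (2.13 to 22.9) at 10 weeks and 4.30 CPM (1.36 to 14.2) at 20 weeks, and was lower in 40 fish. The ranges overlapped widely (log2 fold change -1.07, SE 0.15, edgeR adjusted p = 2.36e-07). These 5 genes fell unevenly over the fish, with mean log2 changes of -0.01 to 0.16 in fish 1 to 10 and of -1.92 to -0.93 in the other 4 groups of 10 numbers, and each differed between the groups (limma F test, adjusted p from 0.00048 to 0.013). ZNF185 (Nfu_g_1_005188), which encodes a protein linked to the actin cytoskeleton, was lower in 42 fish, with medians of 21.2 CPM at 10 weeks and 7.93 CPM at 20 weeks.

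H1F0 (Nfu_g_1_022942), a linker histone gene, and KLF11 (Nfu_g_1_018675), a zinc finger repressor gene, also fell but unevenly over the fish. H1F0 went from a median of 72.1 CPM (3.64 to 371) to 24.3 CPM (2.11 to 123) and was lower in 38 fish, yet its mean log2 change was +1.82 in fish 1 to 10 and between -2.57 and -1.63 in the groups of higher number. KLF11 went from a median of 18.8 CPM (0.75 to 101.8) to 8.42 CPM (0.26 to 38.4), with mean log2 changes near 0 in fish 1 to 20 and of -3.96 in fish 31 to 40. Among identifiers without a name, Nfu_g_1_003876 was lower in 37 fish and Nfu_g_1_013022 in 43, with log2 fold changes of -1.44 and -1.41.

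Among genes with a name that met the rule for naming, at least 5 CPM and a change alike in at least 75% of the fish, the largest rise was that of GFRA4 (Nfu_g_1_015645), which encodes a receptor of the GDNF family of neurotrophic factors. Its level ran from 1.49 to 19.1 CPM with a median of 6.10 at 10 weeks, and from 4.60 to 44.7 CPM with a median of 16.5 at 20 weeks. It was higher in 43 fish, although the ranges overlapped (log2 fold change 1.37, SE 0.15, edgeR adjusted p = 3.06e-10). Its rise differed between the groups of 10 numbers (limma F test, adjusted p = 0.0037). The mean log2 change was 0.52 in fish 1 to 10 and 2.13 in fish 21 to 30, the lowest and highest of the groups. The exocytosis regulator stxbp5l (log2 fold change 1.04), the galactosyltransferase B4GALT1 (0.85), the transcription factor SOX3 (0.80) and the secreted glycoprotein MYOC (0.77) followed, each higher in 39 to 44 fish. MYOC differed between the groups too, from 0.10 in fish 1 to 10 to 1.29 in fish 31 to 40 (limma F test, adjusted p = 0.0017). For stxbp5l, B4GALT1 and SOX3 this test did not pass. The translation elongation factor gene eef2b rose by 0.76, the metalloreductase gene STEAP4 by 0.69 and the vesicle motor gene MYO5B by 0.66 on the log2 scale.

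HFM1 (Nfu_g_1_014111), the gene of a DNA helicase known from meiosis, rose in the most fish of these named genes. Its median went from 6.29 CPM (3.27 to 9.62) to 10.6 CPM (4.15 to 20.0), and it was higher in 47 of 48 fish, with overlapping ranges (log2 fold change 0.76, SE 0.05, edgeR adjusted p = 1.00e-16). MYO5B (Nfu_g_1_010664) was higher in 44 fish, and its mean log2 change was between 0.54 and 0.77 in each of 5 groups of 10 consecutive numbers. Among genes without a name, by the same rule, the largest rises belonged to Nfu_g_1_022824, with medians of 3.19 and 21.1 CPM, and Nfu_g_1_015991, with medians of 5.86 and 26.5 CPM. Nfu_g_1_022824 was higher in 43 fish (log2 fold change 2.63, SE 0.31) and Nfu_g_1_015991 in 46 (2.22, SE 0.24).

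Few changes were shared by nearly all the fish. The median changed gene moved in its own direction in 72.9% of the 48 fish, against 56.2% for genes that did not pass, and the least consistent changed gene did so in 52.1%. At least 75% of the fish moved together in 1802 changed genes, of which 838 rose and 964 fell, and at least 90% did so in 48 that rose and 61 that fell. The direction of a called gene is fixed by the test that called it, so these shares describe the changed genes and carry no test of their own.

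**Figure D2:**
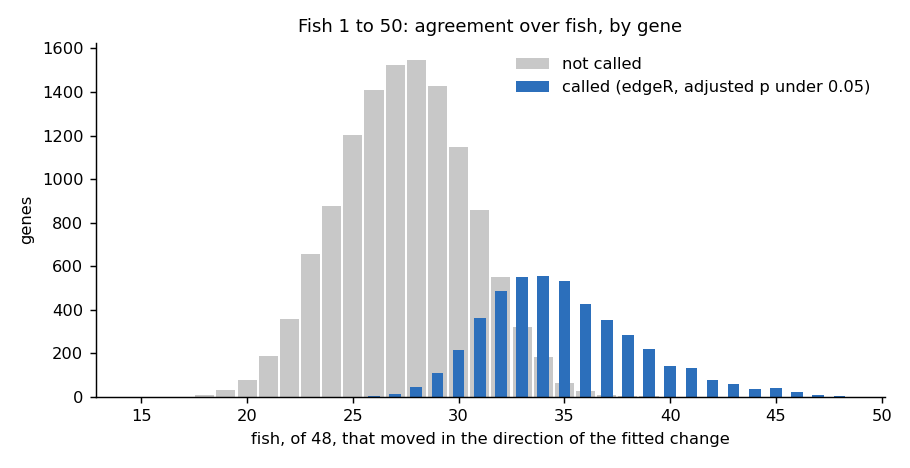
Number of genes, by the number of the 48 fish that moved in the direction of the fitted change, with genes that passed the edgeR test and genes that did not drawn apart. The changed genes centre on 72.9% of the fish and reach all 48 in 2 genes.

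In 11 changed genes at least 47 fish moved alike, and they were singled out after their values were seen. IGF2BP3, Nfu_g_1_011216, Nfu_g_1_021688 and Nfu_g_1_018261 were lower, and HFM1, Nfu_g_1_007509, Nfu_g_1_012291, Nfu_g_1_006786, Nfu_g_1_020612, Nfu_g_1_019289 and Nfu_g_1_013302 were higher. Nfu_g_1_007509 rose in all 48, from a median of 17.98 CPM (3.02 to 42.7) to 44.4 CPM (22.3 to 95.6), so most fish at 20 weeks lay above every fish at 10 weeks. Its log2 fold change was 1.34 (SE 0.13, edgeR adjusted p = 8.46e-12). None of the 11 passed limma's F test of a difference between the 5 groups of 10 numbers (adjusted p from 0.095 to 0.997), and each was called the same way in both other ranges.

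Nfu_g_1_011216 had few counts or none in nearly all clips at 20 weeks. At 10 weeks it had between 22 and 333 counts in each of the 48 libraries, with a median of 139. At 20 weeks 31 libraries had no count, and 44 had at most 4. The exceptions were fish 5, 6, 9 and 19 with 9, 50, 57 and 279 counts, and fish 19 alone had more at 20 weeks than its 235 counts at 10 weeks. Because most later values are 0, a fitted fold change depends on the small count added to it. The other ranges had the same pattern, with no count at 20 weeks in 23 of 34 and in 26 of 32 libraries, and the change did not pass the test of a difference from either (limma adjusted p = 0.68 and 0.89).

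Changed genes were found at all levels of expression. In 5 equal bins of mean CPM the share of changed genes was 26.9%, 27.5%, 24.02%, 25.7% and 31.9% from the lowest to the highest, and their median absolute log2 fold change went from 0.45 to 0.35, 0.26, 0.22 and 0.21. The spread of the change between fish narrowed along the same bins, from a median SD of 0.84 to 0.37, so only larger changes could pass among low genes. The direction shifted with level. Falls outnumbered rises by 567 to 375 in the second bin, and rises outnumbered falls by 678 to 415 in the highest. Of the 100 most abundant genes, which held 42.9% of all CPM, 52 rose and 11 fell, where 13.6% of all genes rose and 13.6% fell. CPM are not divided by gene length, so a bin mixes long genes and short ones. The spread between fish was about the same at both ages, since the SD of log2 CPM had a median of 0.40 at each.

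Genes of the extracellular matrix fell together. Of 31 measured members 17 fell and 0 rose (13.6% of all genes fell), with a median log2 fold change of -0.39 against 0.02 for all genes. The lists here and below were chosen with earlier results of these data known, so their counts against all genes are a description. COL5A2 (Nfu_g_1_022528), a chain of the fibrillar collagens, went from a median of 683 CPM (320 to 1151) to 404 CPM (67.5 to 638) and was lower in 45 fish. All later values lay below the earlier median (log2 fold change -0.82, SE 0.10, edgeR adjusted p = 6.27e-09). SPARC (Nfu_g_1_004335), a calcium-binding matrix protein of bone and healing tissue, had medians of 2476 and 1663 CPM and was lower in 46 fish (-0.69, SE 0.07). The microfibril collagen gene COL6A1 (Nfu_g_1_020233) had medians of 1157 and 743 CPM and was lower in 44 fish (-0.73, SE 0.08). Chains of collagens 4, 6, 11, 12 and 18, the protease MMP2, the collagen hydroxylase P4HA1, periostin (POSTN) and 3 of 4 copies of the matrix glycoprotein tenascin C (TNC), whose reads may be shared between copies, also fell.

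The fall of the matrix was not a property of every member or every fish. Fibronectin (both copies of FN1), versican (both copies of VCAN), fibrillin (FBN1), THBS4, TIMP2, P4HB and the collagen chaperone SERPINH1 did not pass, and 1 copy of FN1 had a log2 fold change of 0.22. The mean log2 change over the 31 genes was below 0 in 42 of 48 fish and ran from -2.85 in fish 50 to 0.97 in fish 28. Fish 13 was at -2.01 and fish 29 at 0.94, so the 4 fish that stood apart held both ends of the range. Without them 20 members fell, 1 rose and the median was -0.35. Between the 5 groups of 10 numbers 2 of the 31 members differed (limma F test), against 29.3% of all genes. In fish 13 and 50 at 20 weeks the factor that scales the library (TMM) was 0.79 and 0.63, against at least 0.88 in the 44 others, and its part in their matrix values was not tested.

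Of 25 measured genes of the cell cycle 11 fell and 0 rose (13.6% of all genes fell), with a median log2 fold change of -0.42. Those that fell were the mitotic kinases and cyclins PLK1, CDK1, BUB1, CCNA2, CCNB1 and CCNB3, the motor KIF11, the proliferation antigen MKI67, the topoisomerase TOP2A, and 1 copy each of RRM1 and RRM2, which make deoxynucleotides. MKI67 (Nfu_g_1_022855) had medians of 31.2 and 16.1 CPM and was lower in 36 fish (log2 fold change -0.93, SE 0.16, edgeR adjusted p = 7.26e-06). The 6 identifiers of the MCM family of replication helicases and the DNA clamp PCNA did not pass, with log2 fold changes of -0.44 to -0.28. The mean over the list was lower in 35 fish, and 13 members fell, with a median of -0.30, without fish 13, 28, 29 and 50. The mean over the list was below 0 in each of the 5 groups of 10 numbers. It was smallest in size in fish 1 to 10 at -0.26 and between -0.73 and -0.44 in the others. Of the 25 members 8 differed between the groups (limma F test), a share near the 29.3% of all genes that did.

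**Figure D3:**
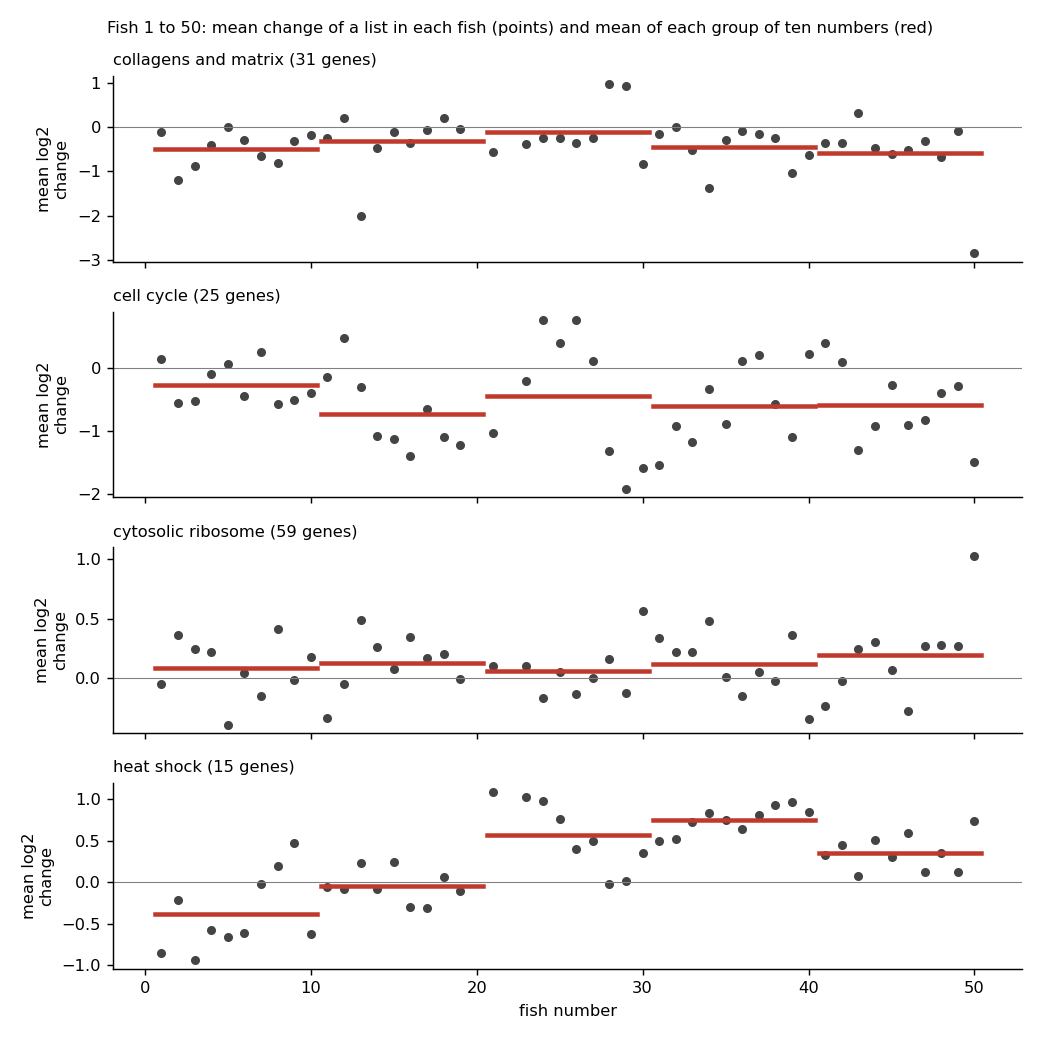
Mean log2 change (20 against 10 weeks) over the measured members of 4 gene lists in each of the 48 fish, against the animal number. The matrix list is below 0 in 42 fish and the cell cycle list in 35, the ribosome list runs from -0.39 to 1.03, and the heat shock list is above 0 in 28 of the 29 fish with numbers over 20 but in 5 of the 19 with lower numbers.

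Transcripts of cytosolic ribosome proteins changed by little. Of 59 genes 37 rose and 0 fell (13.6% of all genes rose), with a median log2 fold change of 0.12, or 1.08-fold. RPL36 (Nfu_g_1_000866) went from a median of 696 CPM (525 to 1058) to 798 CPM (584 to 1215) and was higher in 37 fish, with widely overlapping ranges (log2 fold change 0.21, SE 0.04, edgeR adjusted p = 0.00012). The mean over the list was higher in 31 fish and lower in 17. Fewer members rose without fish 13, 28, 29 and 50, namely 25, and without the unmatched fish 26 did. In fish 1 to 25 alone 2 members rose and in fish 26 to 50 alone 18 did, with medians of 0.09 and 0.13. Of all 17134 genes 920 and 2720 rose in these fits. Between the 5 groups of 10 numbers 0 of the 59 members differed (limma F test), against 29.3% of all genes.

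Heat shock genes rose over the range as a whole, but not in its lower numbers. Over all 48 fish 8 of 15 members rose and 0 fell (13.6% of all genes rose), with a median log2 fold change of 0.24. HSP90AA1 (Nfu_g_1_012354), the inducible Hsp90 chaperone, had medians of 134 CPM (44.7 to 420) and 265 CPM (36.9 to 498) and was higher in 37 fish (log2 fold change 0.73, SE 0.21, edgeR adjusted p = 0.0069). Its mean log2 change was -1.26 in fish 1 to 10, 0.00 in fish 11 to 20, 1.79 in fish 21 to 30, 1.91 in fish 31 to 40 and 0.94 in fish 41 to 50. These groups differed (limma F test, adjusted p = 2.01e-09), and 9 of the 15 members passed this test, against 29.3% of all genes. In fish 1 to 25 alone no member rose and 1 fell, where 920 of all 17134 genes rose and 1054 fell. In fish 26 to 50 alone 11 rose, where 2720 of all genes rose. The medians of the list were -0.03 and 0.43.

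Markers of single tissues of the fin moved in both directions. Of 13 epidermal genes 5 rose and 0 fell (13.6% of all genes rose). Those that rose were the adhesion and desmosome genes CDH1, JUP, DSP and DSG3 and the epidermal transcription factor TP63. JUP (Nfu_g_1_015956) had medians of 1326 and 1578 CPM and was higher in 40 fish (log2 fold change 0.25, SE 0.04, edgeR adjusted p = 4.88e-06), while the 4 keratin genes did not pass. The 13 genes summed to a median of 161882 CPM at 10 weeks and 167922 CPM at 20 weeks, with overlapping ranges. In bulk samples fewer cells of a type and less RNA per cell cannot be told apart.

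Of 5 endothelial genes 4 fell (13.6% of all genes fell), namely the tight junction gene CLDN5 (log2 fold change -0.67), the VEGF receptor KDR (-0.25), CD93 (-0.23) and the junction receptor PECAM1 (-0.23). The 5 summed to a median of 88.5 CPM (63.2 to 140) at 10 weeks and 73.4 CPM (52.6 to 153) at 20 weeks, with overlapping ranges. Of 3 bone genes the transcription factor MSX2 (-0.48) and the alkaline phosphatase ALPL (-0.40) fell and PHOSPHO1 did not pass. ALPL had medians of 50.8 and 42.5 CPM and was lower in 35 fish, and MSX2 was lower in 42.

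Of 22 genes of complement and leukocytes 4 rose, a share near the 13.6% of all genes that rose, among them complement C3 (log2 fold change 0.76) and C4B (0.47) and the leukocyte integrin ITGAL (0.28). C3 (Nfu_g_1_007235) had medians of 1.53 and 2.72 CPM and was higher in 37 fish. None of the 4 red blood cell genes passed, while 13.6% of all genes rose and 13.6% fell. Of 5 muscle genes the identifier listed under the human orthologue MB (-0.75), whose fish symbol is that of the cytoglobin cygb2, and the Z-disc actinin ACTN2 (-0.51) fell, both at medians under 2 CPM, and of 6 nerve and glia genes 2 fell, among them the myelin gene MBP (-0.30). No member of these lists was at 0 in every library, but 5 of 9 muscle symbols and 6 of 11 nerve and glia symbols had no tested gene. The part of cell composition in the other changes was not tested.

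In sterol and lipid synthesis 5 of 14 genes rose, where 13.6% of all genes rose. Among them were the regulator SREBF1 and the fatty acid synthesis genes FASN, ACLY and ACACA, while the lanosterol synthase LSS fell. SREBF1 (Nfu_g_1_019636) had medians of 98.9 CPM (36.1 to 171) and 134 CPM (66.3 to 197) and was higher in 40 fish (log2 fold change 0.52, SE 0.08, edgeR adjusted p = 4.59e-06). Of 40 splicing genes 6 rose, a share near the 13.6% of all genes, and 0 fell, and among them HNRNPM was higher in 43 fish with a log2 fold change of 0.21. Among 17 immediate early genes FOSB (0.80), NR4A1 (0.64) and FOSL1 (0.64) rose, a share near the 13.6% of all genes. The matricellular gene CYR61 (-0.42) fell. In the circadian clock PER2 (0.70) rose and HLF (-0.32) fell among 19, shares under the 13.6% of all genes in each direction. Immediate early genes that rose numbered 6 in fish 1 to 25 alone, with a median of 0.41, where 920 of all 17134 genes rose. In fish 26 to 50 alone 0 rose and 2 fell, with a median of 0.03, where 2720 of all genes rose and 3044 fell. In 13 of the 19 clock genes the change differed between the groups of 10 numbers (limma F test), against 29.3% of all genes.

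Other lists held few changed genes, where 13.6% of all genes rose and 13.6% fell. Of 31 proteasome genes 2 rose, the inhibitor PSMF1 and the chaperone PSMD5, and 0 fell. In the mitochondrial ribosome 1 of 31 rose (MRPL44), and in the respiratory chain COX6B1 rose and ATP5A1 fell among 24. Only 1 gene each fell among 16 of ER folding (listed under CRELD2, though its fish symbol is that of a CRELD1 copy), 13 tRNA synthetases (KARS) and 10 of the glucocorticoid response (the pyruvate dehydrogenase kinase gene PDK4). Of 7 genes of amino acid stress the serine pathway enzymes PHGDH (-0.84) and SHMT2 (-0.32) fell. PHGDH (Nfu_g_1_017748) had medians of 65.3 and 40.4 CPM and was lower in 39 fish. Although few members passed, the mean over a list varied between fish. In amino acid stress the mean log2 change ran from -4.07 in fish 29, which stood apart, to 2.02 (SD 1.08). It ran from -1.92 to 2.69 in the glucocorticoid response (SD 1.05). In the tRNA synthetases it ran from -2.54, again in fish 29, to 1.56 (SD 0.82). The SD was 0.60 in ER folding and smaller in the proteasome, mitochondrial ribosome and respiratory chain, against 0.61 in the matrix list.

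The 5 groups of 10 consecutive numbers, with 9 or 10 fish each, did not all change alike. In 5015 genes, 29.3% of those tested, the change differed between the groups (limma F test, adjusted p under 0.05), and 3791 of them were not among the genes changed over all 48 fish. Across the 17134 genes, the mean changes of fish 1 to 10 and 11 to 20 had a Pearson correlation of 0.54, and those of fish 21 to 30 and 31 to 40 one of 0.74. Fish 1 to 10 had correlations of -0.12 with fish 21 to 30, of -0.13 with fish 31 to 40 and of 0.10 with fish 41 to 50. Genes are not independent replicates, so these values are a description.

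Part of the changes held over all 5 groups. The mean change had 1 sign in all 5 groups in 2576 of the 4663 changed genes (55.2%), against 4.31% of the others. The 4663 genes were called on the same 48 fish. This contrast and the overlap given next therefore follow in part from that call and carry no test of their own. With each group as 1 value, 698 genes passed limma's test, 4.07% of those tested, of which 251 rose and 447 fell, and 697 of them were also changed over the 48 fish. Of the lists, 14 of the 31 matrix genes fell by this test, 4 of 25 cell cycle genes fell and 6 of 59 ribosome genes rose, with 1 of 15 heat shock genes. Of the 5 endothelial genes 0 fell and 0 rose by it. IGF2BP3, OCA2, COL6A1, SPARC, HFM1, MYO5B, GFRA4, B4GALT1 and SOX3 passed, as did the mitosis genes TPX2 and KIF11 (limma adjusted p = 0.044 and 0.047). H1F0, KLF11 and HSP90AA1 did not (adjusted p = 0.30, 0.21 and 0.48 with n = 5, limma). PLK1, CENPF, KIF20A, MYOC and STEAP4 did not pass either (adjusted p from 0.053 to 0.064), and of 86 named genes 30 kept the call and 56 lost it.

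Against the other ranges, fish 1 to 50 had the fewest changed genes and the smallest mean changes. Of the same 17134 genes, 12315 changed in fish 51 to 84 (71.9%) and 12366 in fish 85 and over (72.2%), or 11744 without its 9 unmatched fish. The median absolute log2 fold change over all genes was 0.11 in fish 1 to 50, 0.34 in fish 51 to 84 and 0.25 in fish 85 and over. Changes over 1 on the log2 scale were counted in 1547 genes of fish 51 to 84 and in 833 of fish 85 and over, against the 72 falls and 31 rises above. Taken fish by fish, the median absolute change was 0.34 (0.20 to 0.79), 0.45 (0.25 to 0.67) and 0.33 (0.27 to 0.41), and these ranges overlapped. The spread of the change between fish was a median SD of 0.52, 0.51 and 0.34.

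**Figure D4:**
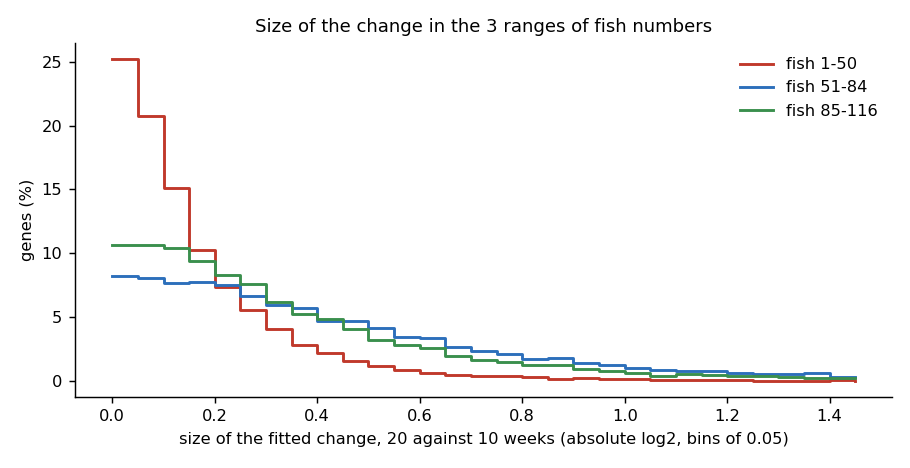
Distribution over 17134 genes of the absolute log2 fold change between the clips, for fish 1 to 50, fish 51 to 84, and fish 85 and over. The medians are 0.11, 0.34 and 0.25, and the first range has the most genes near 0.

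The change of fish 1 to 50 differed from that of fish 51 to 84 in 10978 of 17116 genes (64.1%) and from that of fish 85 and over in 8946 (52.3%), by limma on the within-fish differences. In 2725 genes (15.9%) it differed from both in the same direction, more positive in 1447 (8.45%) and more negative in 1278 (7.47%). In most of these genes fish 1 to 50 had no called change. Of the 2723 that were also tested in fish 1 to 50 alone, 2033 were not changed there, and 1818 of those were changed the same way in both other ranges. Without the 11 unmatched fish of the first and last range, the change of fish 1 to 50 differed from fish 51 to 84 in 10864 genes, from fish 85 and over in 7920 and from both in the same direction in 2418. With all fish kept, only 345 of the 2723 rose in fish 1 to 50 and were more positive than in both, and 209 fell and were more negative.

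Of the 4663 genes changed in fish 1 to 50, 2558 changed the same way and 863 the opposite way in fish 51 to 84, where 71.9% of all genes changed. In fish 85 and over, where 72.2% of all genes changed, these counts were 2458 and 969. In 1349 of the 4663 the direction was 1 in all 3 ranges, and in 211 fish 1 to 50 changed opposite to both others. The rest did not pass in both other ranges or had opposite directions there. Of the named genes that lay farthest from both other ranges, 7 also differed between the groups of 10 numbers (limma F test), as did 29.3% of all genes. HSP90AA1 and DNAJA4 (Nfu_g_1_008486), both of the heat shock list, rose in fish 1 to 50, by 0.73 and 0.72 on the log2 scale. Their values were -0.62 and -0.31 in fish 51 to 84 and -0.39 and -0.92 in fish 85 and over. The messenger-binding LARP4 (0.35) and the mitochondrial carrier SLC25A44 (0.56) also rose here with values below 0 in both others. The microtubule-severing FIGN (-0.73), the stress-related transcription factor FOXO3 (-0.46) and the thrombin receptor F2R (-0.35) fell here with values above 0 in both others. In fish 1 to 25 alone each of these 7 had the opposite sign and did not pass.

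The proteasome had a median log2 fold change of 0.06 with 2 genes that rose in fish 1 to 50, of -0.70 with 29 of 31 that fell in fish 51 to 84 (35.4% of all genes fell there), and of 0.32 with 26 that rose in fish 85 and over (37.6% of all genes rose there), where the median was 0.31 without the 9 unmatched fish. Amino acid stress had medians of -0.07, -1.95 and -0.19 in that order and the tRNA synthetases of 0.11, -1.21 and 0.30. Both medians moved with the setting in fish 1 to 50. The first was 0.07 without fish 13, 28, 29 and 50 and -0.36 without the fish as block, and the second was 0.20 without those 4 fish, -0.04 without the block and -0.03 in fish 26 to 50 alone. In fish 85 and over they were -0.11 and 0.24 without the unmatched fish. The matrix list had more falls than rises in each range, with medians of -0.39, -0.68 and -0.44 and with 17, 23 and 21 genes that fell (34.5% of all genes fell in fish 85 and over). In the ribosome 37, 57 and 53 of 59 genes rose, with medians of 0.12, 0.36 and 0.21 (36.5% of all genes rose in fish 51 to 84). Cell cycle genes had medians of -0.42, -1.39 and -0.01, so fish 1 to 50 lay between the others.

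**Figure D5:**
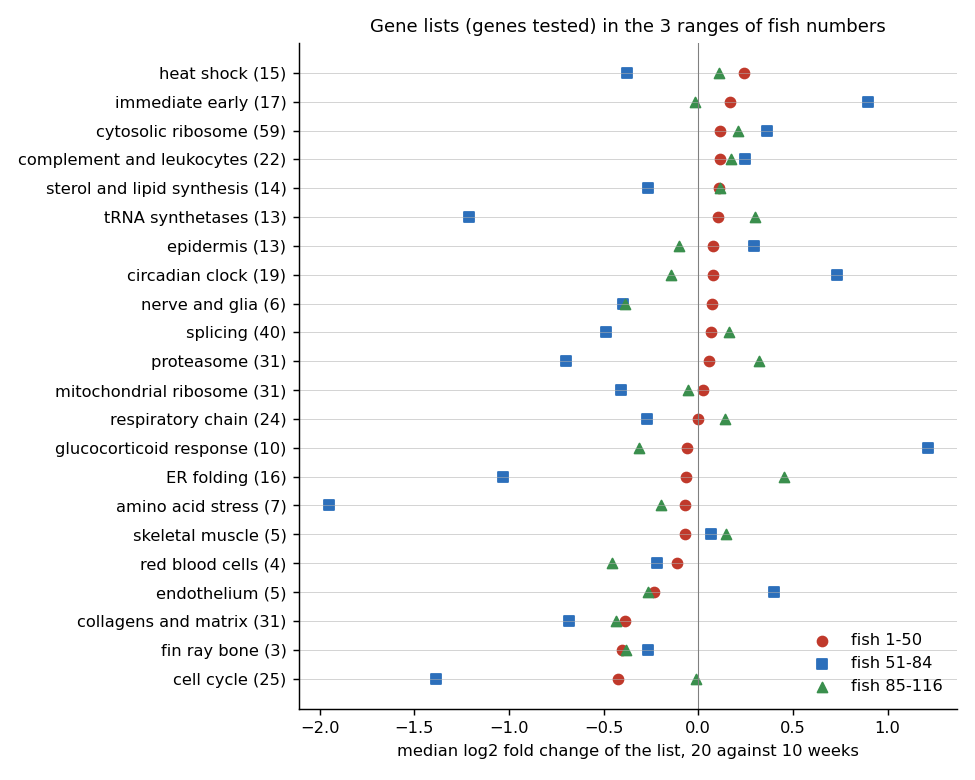
Median log2 fold change of each of the 22 gene lists in fish 1 to 50, fish 51 to 84, and fish 85 and over. In fish 1 to 50 the medians lie between -0.42 (cell cycle) and 0.24 (heat shock), a narrower span than in fish 51 to 84.

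The endothelial genes fell in fish 1 to 50 and in fish 85 and over, 4 of 5 in each, and 5 of 5 rose in fish 51 to 84, where 13.6% and 34.5% of all genes fell and 36.5% rose. Within fish 1 to 50 the mean log2 change over the 5 ran from -0.60 in fish 41 to 50 to -0.03 in fish 1 to 10. IGF2BP3 and OCA2 fell in all 3 ranges, and HFM1 rose in all 3. IGF2BP3 had log2 fold changes of -1.42, -1.15 and -2.06 in the order of the ranges, OCA2 of -1.16, -1.27 and -1.66, and HFM1 of 0.76, 0.93 and 0.83. MYO5B rose by 0.66 in fish 1 to 50 and by 0.78 in fish 51 to 84, and fell by 0.25 on the log2 scale in fish 85 and over. H1F0 fell in fish 1 to 50 and in fish 85 and over, by 1.41 on the log2 scale in each, and rose by 1.65 in fish 51 to 84.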

How the data were processed

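RNA of fin clips was sequenced from TruSeq libraries that do not mark strand, so overlapping and antisense genes cannot be told apart. Reads may also be shared between near-identical copies. The values deposited by the authors are raw counts per gene in 1 table of 26739 genes, made per the submitters' processing notes with bcl2fastq 1.8.4, TopHat2 2.1.0 and featureCounts 1.5.0. A genome build and annotation are named for the study's brain libraries, but none is stated for the fin clips. The depth of each library limits low genes most, and 3544 genes had no count.

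For fish 1 to 50 the counts were tested with edgeR 4.0.16 (quasi-likelihood, TMM factors, filterByExpr by age, the fish as block) in R 4.3.3, with Benjamini-Hochberg adjustment over 17134 genes and a threshold of 0.05, and two-sided. The genes tested held 99.9% of the counts. The fish is the same animal at both ages per the labels, and in 46 of the 48 fish the 2 clips matched in their expression of 300 genes (median correlation 0.87). The other ranges were fitted alike, and fish 85 and over also without its 9 unmatched fish. Differences between ranges and between the groups of 10 numbers were tested with limma 3.58.1 (trend on mean expression) on within-fish differences of log2 CPM with a prior count of 1. DESeq2 1.42.0 served as an alternative. The fits were tested on simulated data in which the fish were independent. No change shared by neighbouring numbers was simulated, so that test does not show how the fits behave where such groups differ.

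Names are the human orthologues, or fish symbols, paired with gene identifiers in the study's supplementary tables, which were held in part: 5613 of the 26739 identifiers and 28.9% of the genes tested had one, and 0 matched the RefSeq table. For some list members the fish symbol differs from the human orthologue. The 22 lists are therefore incomplete, and some genes that the rule below names are not reported here. The members and lists were chosen with earlier results of these data known. Genes were named by a rule: the 10 largest changes in each direction with a name and 2 without, among changed genes of at least 5 CPM that moved alike in at least 75% of the fish, then 4 in each direction that differed most from both other ranges, then up to 4 changed genes per list. Other members of the lists, and the genes alike in at least 47 fish, were named after their values were seen. Alternatives were other tools, scalings and filters, no block, fish 1 to 25 and fish 26 to 50 apart, and fits without the fish that did not match, died within 24 weeks of age, had a TMM factor under 0.8, or stood apart (the last chosen after seeing the data).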

Additional observations from a re-analysis of the deposited data

Results flagged for a closer look

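The change between the clips differed from that of fish 51 to 84 in 10978 genes and from that of fish 85 and over in 8946 (limma on within-fish differences, adjusted p under 0.05), and many of the named genes were among them. For each gene the range with the larger difference is given, as the log2 change of fish 1 to 50 minus that of the other range. The limits of the ranges were set with these data in view.

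Against fish 85 and over the genes of mitosis had the more negative change, with a difference of -1.23 for CENPF (Nfu_g_1_002076), -1.21 for KIF20A (Nfu_g_1_005218), -1.03 for KIF11 (Nfu_g_1_012154), -0.85 for TPX2 (Nfu_g_1_015550) and -0.81 for PLK1 (Nfu_g_1_007229). The repressor gene KLF11 (Nfu_g_1_018675) differed by -1.35. The falls of IGF2BP3 (Nfu_g_1_013299) and OCA2 (Nfu_g_1_014733) were smaller than in that range, with differences of 0.64 and 0.50. The change was more positive by 0.53 for GFRA4 (Nfu_g_1_015645), 0.91 for MYO5B (Nfu_g_1_010664), 0.92 for SOX3 (Nfu_g_1_004371), 0.95 for B4GALT1 (Nfu_g_1_004909) and 1.63 for DNAJA4 (Nfu_g_1_008486). The unnamed Nfu_g_1_022824 and Nfu_g_1_015991 differed most, by 2.19 and 3.10. Nfu_g_1_022824 also differed from fish 51 to 84, by 1.92 (limma adjusted p = 0.00040). For Nfu_g_1_015991, which rose by 1.86 in fish 51 to 84 too, that difference did not pass (0.53, limma adjusted p = 0.26).

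Against fish 51 to 84 the chaperone gene HSP90AA1 (Nfu_g_1_012354) was more positive by 1.27, LARP4 (Nfu_g_1_010455) by 1.05, SLC25A44 (Nfu_g_1_003179) by 1.98 and Nfu_g_1_013022 by 0.96. The difference was -2.64 for the linker histone H1F0 (Nfu_g_1_022942), -1.72 for FOXO3 (Nfu_g_1_004534), -1.37 for F2R (Nfu_g_1_006533) and -1.22 for FIGN (Nfu_g_1_010345). It was -0.94 for MYOC (Nfu_g_1_009961), -0.89 for STEAP4 (Nfu_g_1_001285), -0.53 for ZNF185 (Nfu_g_1_005188) and -0.51 for stxbp5l (Nfu_g_1_017820).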

How the results depend on the processing

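The counts of 2329 genes that rose and 2334 that fell stayed within 1.5 times under DESeq2, limma, other size factors and filters, and without the fish that did not match, died early, had low TMM factors or stood apart. Without the fish as replicate block 1984 rose and 2073 fell, and 3799 genes were called the same way in both fits. In fish 1 to 25 alone (n = 23) 920 rose and 1054 fell, and in fish 26 to 50 alone (n = 25) 2720 rose and 3044 fell. Of the genes called in both of these, 922 had the same direction and 41 the opposite. With each group of 10 numbers as 1 value (limma) 251 rose and 447 fell. Of 86 named genes 43 kept direction and call in fish 1 to 25 alone, and 9 turned without passing: HSP90AA1 (-0.13), DNAJA4 (-0.053), LARP4 (-0.17), SLC25A44 (-0.042), MRPL44 (-0.079), FIGN (0.022), FOXO3 (0.076), F2R (0.12) and HLF (0.047). The cause was not tested. The genes that differed from both other ranges were 2418 to 3021 over most alternatives and 8573 against the mean of the other 2 ranges, which asks for 1 contrast in place of 2. Depth limits the lowest genes most, where the spread between fish was widest.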

Other observations

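Beyond the lists, the genes that passed limma's test over the 5 groups of 10 numbers included genes on no list, which were picked after their values were seen and stand for no group. IGF2BP1, the relative of IGF2BP3, had medians of 3.62 and 1.52 CPM and was lower in 43 of 48 fish (log2 fold change -1.17, SE 0.14). NID2, which encodes nidogen (-0.59), LAMA5, a laminin chain (-0.53), HSPG2, perlecan (-0.49), and AGRN, agrin (-0.46), fell, each lower in 40 to 43 fish. SMC4, a condensin subunit gene, fell with medians of 51.2 and 31.7 CPM and lower values in 45 fish (log2 fold change -0.70, SE 0.06), as did the spindle pole gene ASPM (-1.05), the condensin gene NCAPG2 (-0.84) and the spindle gene TACC3 (-0.67).

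Of those that rose, the tight junction gene CGN was higher in 45 fish (log2 fold change 0.73, SE 0.08) and the potassium channel gene KCNMA1 in 43 (0.64, SE 0.09). The integrin gene ITGB5 had medians of 260.0 and 349 CPM and was higher in 44 fish (0.38, SE 0.04). APOE, the gene of a lipid carrier, had medians of 1673 and 2103 CPM and was higher in 39 fish (0.41, SE 0.05).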
